A study of Mus musculus with 59 samples.

Results

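The 10 genes described here mark microglia, the resident macrophages of the brain, and were read in 59 cells from mice, labelled as chemical-induced neurons. They were chosen by symbol from the 20689 genes of the deposited table (C1qa, C1qb, C1qc, Tyrobp, Trem2, Csf1r, Cx3cr1, P2ry12, Tmem119 and Aif1), and all 10 were present in it. The study addressed the conversion of astrocytes into neurons by chemicals in the living brain, and each cell's content was sucked into a patch pipette in vivo before RNA sequencing. All cells belong to a single labelled group, aged 12 weeks. The labels name no chemical, strain or animal, and whether several cells came from 1 animal or 1 brain region is not given, so the 59 cells were treated as 1 sample with no test between groups and no p-value. No untreated cells, sorted microglia or ordinary neurons were analysed here. Cells are named by the numbers in their labels.

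Most but not all cells carried the genes of their label. At least 50% of 21 pan-neuronal genes was detected, at an FPKM of 1 or more, in 47 of 59 cells, and in the remaining cells fewer, down to 0 of 21 in cell 53. Snap25, a synaptic vesicle fusion gene, was detected in 54 cells. FPKM counts fragments per exon length and per library size. Depth, recovered from the spacing of the low FPKM values, had a median of 912996 fragments (29043 to 2950402 over the cells), and 3984 genes were detected in the median cell (475 to 10310). In 31 cells 1 fragment suffices to call a gene of 1 kb, so recovered fragments are given beside the FPKM where they matter. For 7 of the 10 genes the recovered fragments were whole numbers within 0.02 fragments in all 59 cells with the annotated exon length. For Tyrobp, Csf1r and Cx3cr1 the length was itself fitted to the values, so their whole numbers are no check. Intervals on shares of cells are 95% exact (Clopper-Pearson) and reflect the counting of cells alone.

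C1qa, C1qb and C1qc encode the A, B and C chains of C1q, the molecule that starts the classical complement pathway and tags synapses and debris for uptake. Microglia are the main source of C1q in the brain. TYROBP (also called DAP12) is the signalling adaptor of TREM2, a surface receptor for lipids and apolipoproteins through which microglia take on a disease-associated state. Microglia also make C1q and TYROBP at rest, so the grouping of these 5 genes is one of role and not of cell state. The homeostatic group holds Csf1r, the receptor for the survival factors CSF1 and IL-34; Cx3cr1, the receptor for the neuronal chemokine CX3CL1; P2ry12, an ADP receptor that steers microglial processes; and Tmem119, a membrane protein used as a microglia marker. P2RY12 and TMEM119 are known to be lowered when microglia become activated. Aif1, which encodes the actin-binding protein IBA1, is a marker of microglia and macrophages in any state and was placed in neither group.

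Promoter sequence is shown for 4 of the genes, since PU.1, the transcription factor encoded by Spi1 that is needed to form microglia, reads purine-rich boxes. Windows of 250 bases before the RefSeq start on GRCm38.p6 were read for 6 of the 10 genes (C1qb, C1qc, Trem2, Cx3cr1, P2ry12 and Aif1). Csf1r was left out of this step, and no window was at hand for C1qa, Tyrobp or Tmem119. Shown on the gene's own strand are C1qb (chr4:136886201-136886450, minus strand), C1qc (chr4:136892915-136893164, minus strand), Trem2 (chr17:48346151-48346400, plus strand) and P2ry12 (chr3:59262986-59263235, minus strand), with GAGGAA or its reverse complement TTCCTC in capitals.
C1qb: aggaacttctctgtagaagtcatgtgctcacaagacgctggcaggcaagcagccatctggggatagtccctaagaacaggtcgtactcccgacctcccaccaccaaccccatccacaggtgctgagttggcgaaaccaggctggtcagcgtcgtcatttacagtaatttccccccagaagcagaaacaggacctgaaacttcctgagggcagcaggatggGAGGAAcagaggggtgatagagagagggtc
C1qc: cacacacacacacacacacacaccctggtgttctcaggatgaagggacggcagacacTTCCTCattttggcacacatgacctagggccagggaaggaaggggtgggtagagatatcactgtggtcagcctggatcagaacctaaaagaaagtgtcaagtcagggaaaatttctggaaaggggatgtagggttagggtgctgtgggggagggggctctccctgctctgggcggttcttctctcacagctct
Trem2: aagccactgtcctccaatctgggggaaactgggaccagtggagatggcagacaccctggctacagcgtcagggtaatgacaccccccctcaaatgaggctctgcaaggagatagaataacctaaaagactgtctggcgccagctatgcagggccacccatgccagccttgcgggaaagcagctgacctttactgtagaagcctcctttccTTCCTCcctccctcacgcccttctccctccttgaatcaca
P2ry12: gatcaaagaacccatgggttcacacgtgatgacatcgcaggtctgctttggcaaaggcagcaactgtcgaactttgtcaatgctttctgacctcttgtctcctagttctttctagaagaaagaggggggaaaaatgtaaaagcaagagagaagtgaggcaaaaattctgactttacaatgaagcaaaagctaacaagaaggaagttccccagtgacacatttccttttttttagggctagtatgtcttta
The 3 complement and TREM2 windows each held 1 purine box, and the P2ry12 window held none. Counted back from the start site, the box lay at bases 30 to 25 on the gene's strand in C1qb, at bases 193 to 188 on the opposite strand in C1qc and at bases 40 to 35 on the opposite strand in Trem2. The last 2 also match the longer box GAGGAAG, which overlaps the shorter one by construction. Of the windows not printed, Aif1 held GAGGAA at bases 7 to 2 on the opposite strand, and Cx3cr1 held none. TGTGGT, a RUNX core, occurred once in C1qc (bases 132 to 127) and once in Cx3cr1 (bases 54 to 49, opposite strand). TGANTCA, a loose form of the AP-1 core with any base at N, occurred once in Trem2 (bases 9 to 3). The match there reads TGAATCA, without the G or C of the usual AP-1 core. These motifs are common: on either strand, GAGGAA stood in 23.3% of 32851 promoter windows of this length, GAGGAAG in 10.6%, TGTGGT in 14.0% and TGANTCA in 6.75%. A match describes letters in a window and is not a measured binding site.

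At least 1 gene of the microglia program was detected in most of these cells, with C1qb, Aif1 and C1qa the most widely detected. Of the 10 genes, 5 (C1qa, C1qb, C1qc, Tyrobp and Aif1) passed detection in 50% of the cells or more, where 2413 of all 20689 genes (11.7%) reached that share. At least 1 of the 10 was detected in 52 of 59 cells (88.1%, interval 77.1 to 95.1%), at least 5 in 30 cells (50.8%, interval 37.5 to 64.1%) and the complete set in 10 cells (16.9%, interval 8.44 to 29.0%). The median cell had 5. A comparison list of 8 genes of other organs had a median detection of 5.08% of cells over the 5 measured. These ran from Krt5 (a skin keratin) in 1 cell to Cela1 (a pancreatic elastase) in 12.

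**Figure D1:**
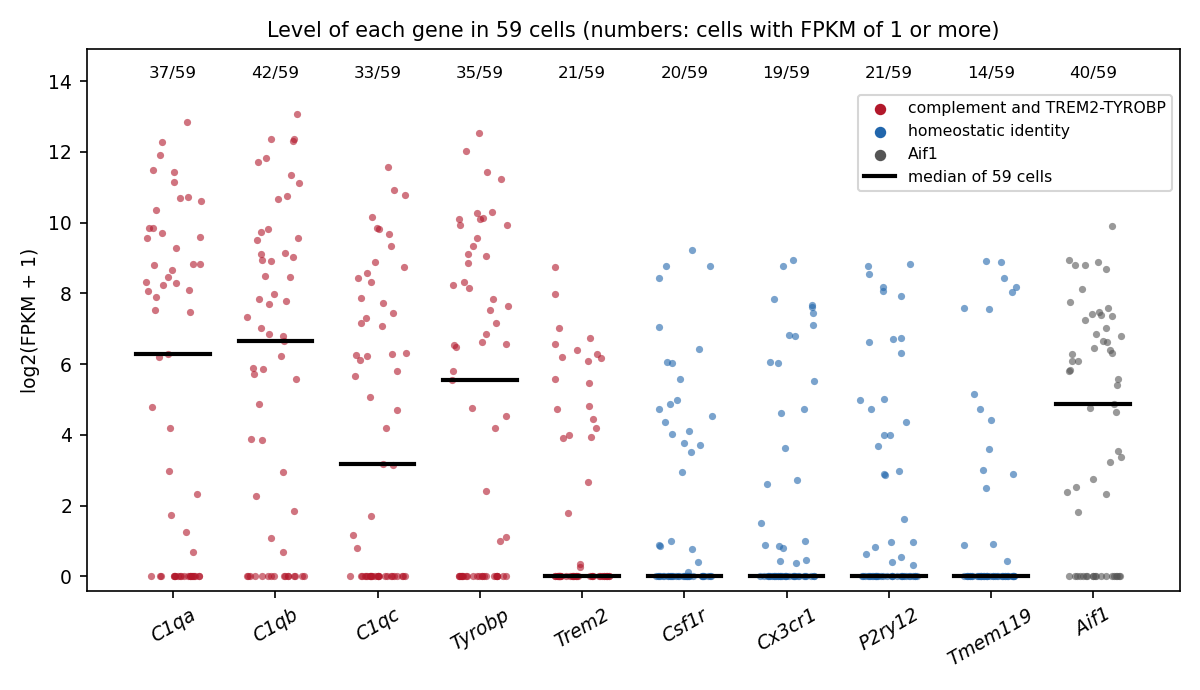
Level of each of the 10 genes in the 59 cells as log2(FPKM + 1); each point is a cell, the black bar is the median and the number above is the count of cells at an FPKM of 1 or more. The C1q chains and Tyrobp reach the top of the scale and Aif1 spans a lower range, while the medians of Trem2 and the 4 homeostatic genes lie at 0.

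C1qb, on chromosome 4 (136880129 to 136886187, minus strand, GRCm38), had the highest level of the 10. Its FPKM was 0 at the lowest, 100 at the median and 8628 at the highest, in cell 21, and it was detected in 42 of 59 cells (71.2%, interval 57.9 to 82.2%). The highest value rested on 27550 fragments, and 36 cells had at least 10. C1qb thus ranged from no fragment, in 16 cells, to the highest fragment count of the 10 genes. C1qa, on the same strand (136895917 to 136898803), had an FPKM of 0 at the lowest, 76.4 at the median and 7354 at the highest, also in cell 21, and was detected in 37 cells (62.7%, interval 49.1 to 74.96%). C1qc, which lies between them (136889804 to 136893065), had 0, 8.02 and 3066 FPKM, the last again in cell 21, and was detected in 33 cells (55.9%, interval 42.4 to 68.8%). The 3 genes span 18.7 kb, and cells 21, 15 and 28 were the 3 highest for each of them.

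The chains did not always come together in a cell. All 3 were detected in 29 cells (49.2%, interval 35.9 to 62.5%), 2 in 8 cells and 1 in 9 cells. Some of these mismatches stood at high counts: in 35 cells some chain had at least 100 fragments, and in 9 of those another chain had 0. Cell 14 had 868 fragments of C1qb and 276 of C1qc with none of C1qa. Cell 35 had 419 of C1qb and 1176 of C1qc, again with none of C1qa. Cell 5 had 109 of C1qa and 156 of C1qc without C1qb. Cell 27, with 475 genes detected, had 130 fragments of C1qa and no other gene of the 10. These single-chain and 2-chain cells are set against 17 cells in which every chain had at least 100 fragments. PCR copies cannot be told from separate molecules here, so a count of 100 can stem from few molecules.

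The proportions of the chains can be read where both of a pair had at least 10 fragments, a filter that leaves out the cells with a chain at 0. The log2 ratio of C1qa over C1qb FPKM had a median of -0.08 (SD 1.28, 29 cells) and was above 0 in 14 of them. That of C1qa over C1qc had a median of 1.52 (SD 0.90, 25 cells) and was above 0 in all 25. That of C1qb over C1qc had a median of 1.82 (SD 1.17, 26 cells) and was above 0 in 23. At the median, C1qa and C1qb were thus close to each other per length in these cells, with quartiles of the log2 ratio at -0.70 and 1.01. C1qc was mostly lower per length, with an exon length of 1931 bases against 1040 for C1qa and 1088 for C1qb. Over all 59 cells, zeros included, C1qb minus C1qa on the log2(FPKM + 1) scale had an SD of 3.70.

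Tyrobp, on chromosome 7 (30413760 to 30417585, plus strand), was 0 FPKM at the lowest, 45.8 at the median and 5977 at the highest, in cell 21. It was detected in 35 cells (59.3%, interval 45.7 to 71.9%), and 32 cells had at least 10 fragments. Trem2, on chromosome 17 (48346401 to 48354147, plus strand), was 0 at the lowest and at the median and 426 FPKM at the highest, in cell 21, and was detected in 21 cells (35.6%, interval 23.6 to 49.1%). The receptor was therefore found in fewer cells than its adaptor. Trem2 was almost always accompanied by Tyrobp: both were detected in 20 cells, Tyrobp without Trem2 in 15, and Trem2 without Tyrobp in cell 14 alone, with 76 fragments of Trem2. In the 20 cells with at least 10 fragments of both, the log2 ratio of Tyrobp over Trem2 FPKM had a median of 3.73 (SD 1.20) and was above 0 in every one. FPKM divides by exon length, here 564 bases for Tyrobp and 4946 for Trem2, and the part of length in this ratio was not tested. In cell 21 the fragments were 9893 of Tyrobp and 6178 of Trem2. Trem2 had at least 10 fragments in each of the 21 cells in which it was called.

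Each homeostatic gene was found in 14 to 21 of the 59 cells, fewer than any C1q chain. Csf1r, on chromosome 18, was 0 FPKM at the lowest and at the median and 595 at the highest, in cell 50, and was detected in 20 cells (33.9%, interval 22.1 to 47.4%). All 20 had at least 10 fragments. P2ry12, on chromosome 3 (59216272 to 59262871, minus strand), was 0 at the lowest and at the median and 457 FPKM at the highest, in cell 24, and was detected in 21 cells (35.6%, interval 23.6 to 49.1%). Tmem119, on chromosome 5 (113793729 to 113800516, minus strand), was the least detected of the 10, in 14 cells (23.7%, interval 13.6 to 36.6%), with 0, 0 and 482 FPKM, the highest in cell 50. Its high values were concentrated: 7 of the 14 cells lay at 189 FPKM or more and the other 7 at 34.6 FPKM or less.

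Cx3cr1, on chromosome 9, was 0 FPKM at the lowest and at the median and 489 at the highest, and was detected in 19 cells (32.2%, interval 20.6 to 45.6%). Its highest value came from a cell with no other gene of the 10. Cell 62 had 1090 fragments of Cx3cr1 and 0 of each of the others, at a depth of 596201 fragments and 1074 genes detected. Elsewhere Cx3cr1 was accompanied by complement genes: 18 of its 19 cells also had C1qb, which was detected in 42 of all 59 cells. Of the 5 cells with the next highest values, 4 (15, 49, 50 and 28) had all 10 genes and cell 51 lacked Tmem119.

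Aif1, on chromosome 17 (35170991 to 35176068, minus strand), was widely detected at moderate levels. It was 0 FPKM at the lowest, 28.0 at the median and 958 at the highest, in cell 36, and was detected in 40 cells (67.8%, interval 54.4 to 79.4%). In 3 of these cells (1, 12 and 38) no other gene of the 10 was detected. Cell 38 had 214 fragments of Aif1, cell 1 had 25 and cell 12 had 11.

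In the order of mean log2(FPKM + 1), the genes ran C1qb 5.68 ± 4.43, C1qa 5.24 ± 4.66, Tyrobp 4.77 ± 4.43, Aif1 4.15 ± 3.36, C1qc 4.01 ± 4.05, P2ry12 2.08 ± 2.97, Csf1r 1.97 ± 2.86, Trem2 1.94 ± 2.79, Cx3cr1 1.89 ± 2.95 and Tmem119 1.46 ± 2.81 (SD over 59 cells). No pair of neighbours in this order differed by more than the SD of their difference over cells. The largest step, between C1qc and P2ry12, averaged 1.93 (SD 2.98), with C1qc higher in 33 cells, lower in 4 and equal in 22. By FPKM, Trem2 therefore stood beside the homeostatic genes and not beside its adaptor, whose exon length is far shorter (564 against 4946 bases).

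Some of these values depend on the gene models. The deposited FPKM of Tyrobp, Csf1r and Cx3cr1 fitted exon lengths of 564, 4885 and 3742 bases, against 667, 5774 and 4505 in GENCODE M21, so the annotation behind the values differed from that release for these 3 genes. Whether the counting used strand is not given in the sources used here, and reads of overlapping genes on opposite strands could then be shared. P2ry12 lies within Med12l on the other strand. Med12l was detected in 7 cells, 4 of them with P2ry12, and the Spearman rho of the pair over the 59 cells was 0.18. Csf1r overlaps Hmgxb3, detected in 4 cells, 3 of them with Csf1r, with a rho of 0.25. The GENCODE M21 locus of Cx3cr1 (119901616 to 120069879, minus strand) reaches over Wdr48, Gorasp1, Ttc21a and Csrnp1, whose rho with Cx3cr1 was 0.05 to 0.26. The other 7 genes overlap no other gene of the table.

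The complement and TREM2-TYROBP genes lay above the homeostatic genes in most cells. In the median cell the 5 complement and TREM2-TYROBP genes averaged 3.81 on the log2(FPKM + 1) scale and the 4 homeostatic genes 0.25. Within a cell, the first mean minus the second had a median of 2.36 (quartiles 0.58 and 3.63, SD 2.17, range -2.23 to 9.34), above 0 in 49 cells, below 0 in 3 (4, 11 and 62) and equal in 7. The median was 1.41 with a pseudocount of 10. In cells 4 and 11 the value below 0 rested on 1 fragment of Csf1r and of P2ry12, so cell 62 is the one clear case. The groups hold different genes with different levels in any microglia, so the sign of this difference does not give a state.

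**Figure D2:**
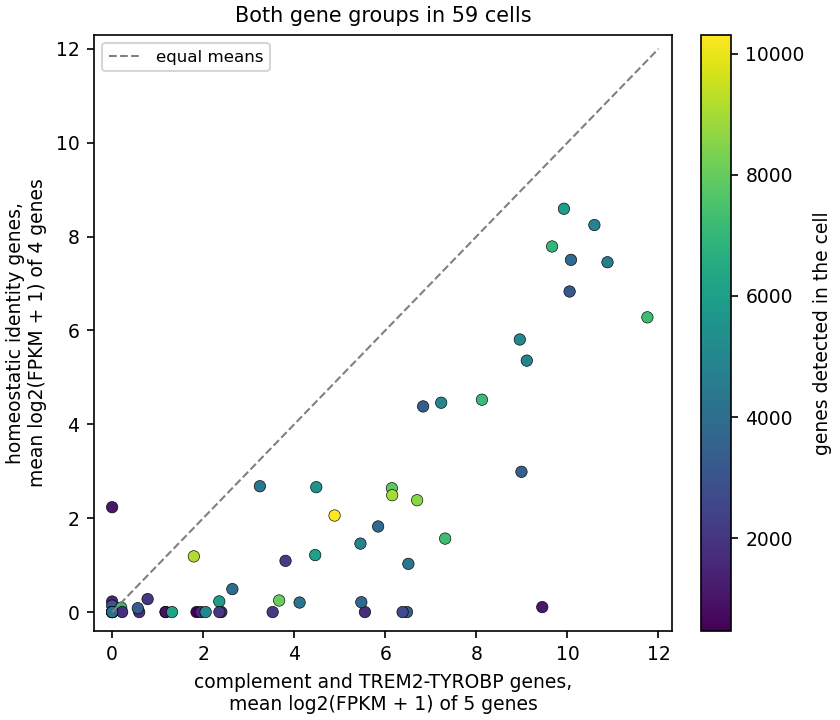
Mean log2(FPKM + 1) of the 5 complement and TREM2-TYROBP genes (x axis) against that of the 4 homeostatic genes (y axis) in each of 59 cells, with the number of detected genes as colour and equal means as the dashed line. Of the cells, 49 lie below the line, and cell 62 is the point well above it at the left edge.

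All but 1 of the cells with a homeostatic gene also had a complement or TREM2-TYROBP gene, which only 11 of all 59 cells lacked. Both groups had at least 1 detected gene in 26 cells, the complement and TREM2-TYROBP group alone in 22 (37.3%, interval 25.0 to 50.9%), the homeostatic group alone in cell 62 and neither group in 10. No homeostatic gene was detected in 32 cells, 1 in 7 cells, 2 in 3, 3 in 7 and all 4 in 10. The number was thus mostly none or nearly all. All 5 complement and TREM2-TYROBP genes were detected in 20 cells, and 18 of these had a homeostatic gene. Of the 17 cells with 3 or 4 homeostatic genes, 16 had all 5 of the other group, and the remaining one, cell 25, had Trem2 at 1 fragment and the other 4 at 260 to 502 fragments.

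The 2 cells with all 5 complement and TREM2-TYROBP genes and no homeostatic gene were unlike each other. Cell 36 had 4171 FPKM of Tyrobp, 1649 of C1qa and the highest Aif1 of all cells, at 958, and its difference of group means, 9.34, was the widest. It had 1139 genes detected and 8 of 21 neuronal genes. Cell 32 had 449 FPKM of C1qa, 227 of Tyrobp and 71.1 of Trem2 with C1qb at 2 fragments, and all 21 neuronal genes. Of the homeostatic genes, cell 36 had 1 fragment of Cx3cr1 and cell 32 had none.

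**Figure D3:**
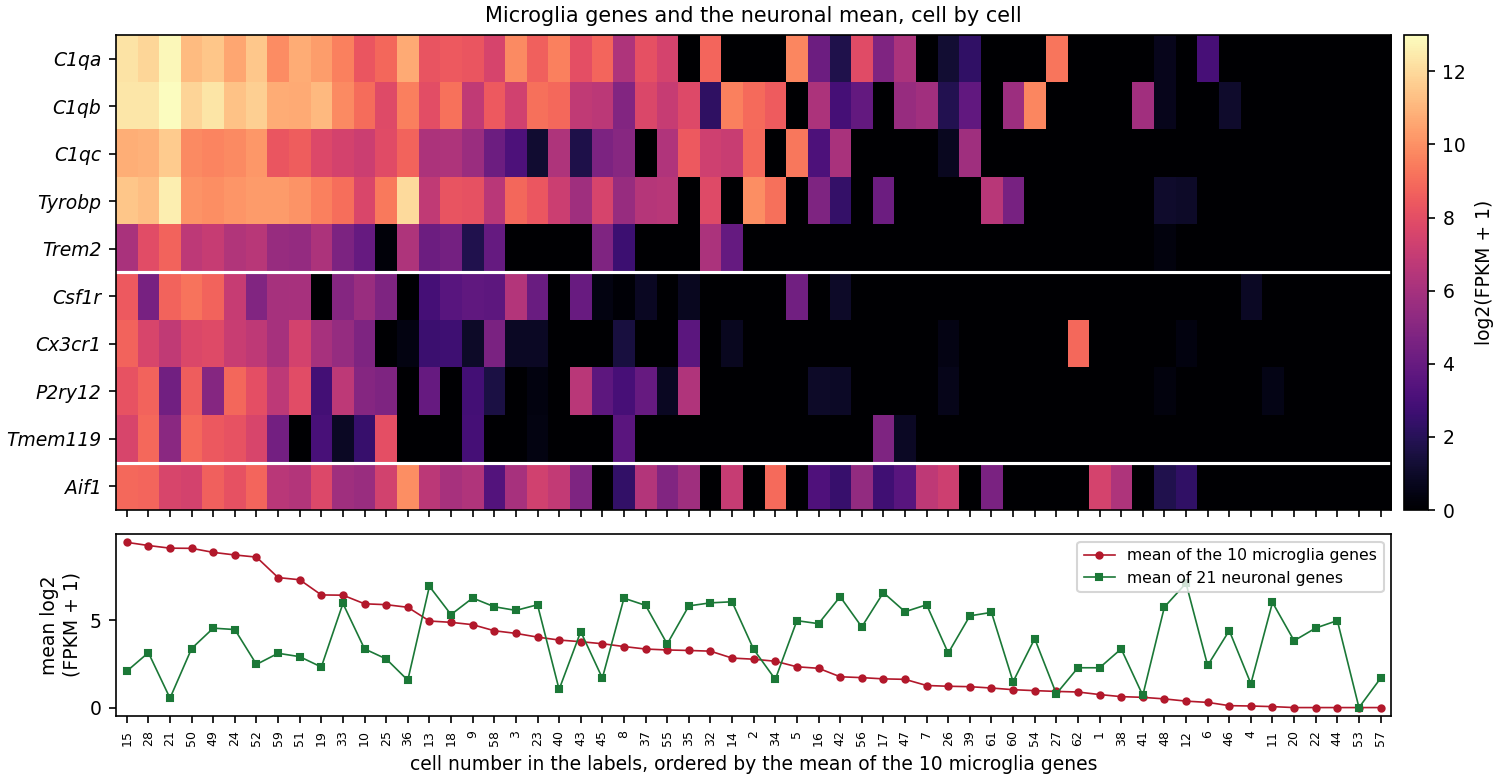
Upper panel: log2(FPKM + 1) of the 10 genes (rows) in each of 59 cells (columns), ordered by the mean of the 10, with white lines between the complement and TREM2-TYROBP group, the homeostatic group and Aif1. Lower panel: mean log2(FPKM + 1) of the 10 genes and of 21 neuronal genes in the same cells; homeostatic signal is dense in the left columns, and the neuronal mean is spread over both ends of the order.

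The 10 genes varied together from cell to cell. Over the 45 pairs, Spearman rho across the 59 cells had a median of 0.65 and ran from 0.48 (Csf1r with Aif1) to 0.80 (C1qb with Tyrobp). Pairs of all 8042 genes detected in at least 12 cells had a median rho of 0.22 (quartiles 0.12 and 0.32). The points share library depth and the number of detected genes, so these values are a description with no p. Given the number of genes detected, the median partial rho of the 45 pairs was 0.59.

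Within roles and by Spearman rho, the pairs were tightest for complement and TREM2-TYROBP. The median rho was 0.76 over its 10 pairs (0.68 to 0.80), 0.65 over the 6 homeostatic pairs (0.61 to 0.77), 0.64 over the 20 pairs between both groups (0.56 to 0.73) and 0.55 over the 9 pairs of Aif1. The order did not hold by Pearson r of log2(FPKM + 1). Its median was 0.725 for the complement and TREM2-TYROBP pairs and 0.728 for the homeostatic pairs. The ranges of rho overlap, and whether the groups of pairs differ was not tested. Csf1r with P2ry12 was the highest homeostatic pair at 0.77, detected together in 16 cells, which is 80% of the cells with Csf1r and 76.2% of those with P2ry12. Trem2 with Cx3cr1 was the highest pair between the groups at 0.73. Tmem119 was detected in 14 cells, each of which also had C1qa, Tyrobp and Aif1.

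**Figure D4:**
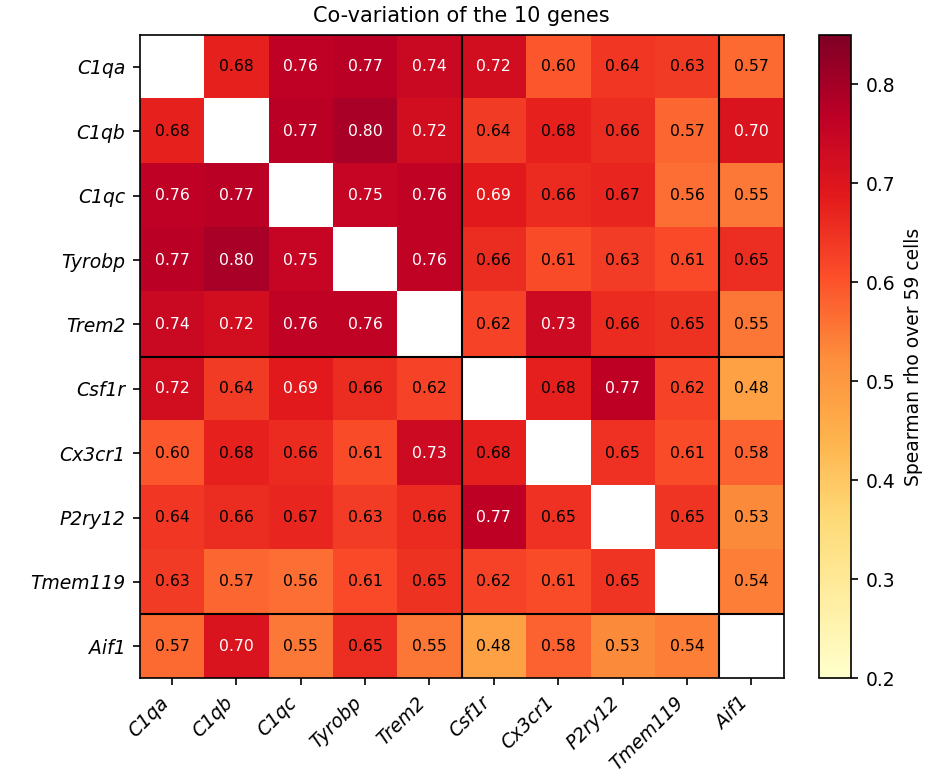
Spearman rho over 59 cells for every pair of the 10 genes, with black lines between the complement and TREM2-TYROBP group, the homeostatic group and Aif1. The values run from 0.48 to 0.80, and the block of complement and TREM2-TYROBP pairs at the top left holds the highest.

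The genes whose levels were most like those of the 10 included further microglia and macrophage genes. Among 8032 other genes detected in at least 12 cells, 218 (2.71%) had a rho of 0.5 or more with the mean log2(FPKM + 1) of the 10, and the median rho was 0.20 (quartiles 0.11 and 0.29). Among the 15 highest were Ly86 at 0.82, Ctss (cathepsin S) at 0.82, Laptm5 at 0.81, Ctsd (cathepsin D) at 0.80, Lyz2 (lysozyme) at 0.79, Fcer1g (an Fc receptor adaptor) at 0.78, Il1a (interleukin 1 alpha) at 0.77, Cd68 and Cd53 at 0.76 each, Cd14, Ctsh and Cd83 at 0.75 each, and Plek and Rnaset2a at 0.73 each. The 5 lowest were Gprasp1 and Ndufa5 at -0.25, Hsp90aa1 at -0.24, and Ispd and Lars2 at -0.23. Of the 15, 10 stood on the microglia or inflammatory lists described next, and the lower end of the ranking was closer to 0 than the upper.

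Gene by gene, the nearest partner over the 59 cells was Ctsd for C1qa (rho 0.80), Lyz2 for C1qc (0.77) and Ly86 for Tyrobp (0.80). It was Lyz2 for Trem2 (0.81), Ctss for Cx3cr1 (0.80) and for Aif1 (0.73), and Cd14, the lipopolysaccharide co-receptor, for Tmem119 (0.81). Csf1r and P2ry12 were each other's nearest partner (0.77). Apart from this pair, the nearest partners named here lay outside the 10.

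Further microglia lists gave the same ranking of cells to different degrees. A list of 24 other microglia genes had a rho of 0.90 between its mean and the mean of the 10 (partial rho 0.87 given genes detected). Its median gene was detected in 29.7% of cells, from Lgmn, a lysosomal protease, in 43 cells to Csf3r, the receptor for granulocyte colony-stimulating factor, in 5. The value was 0.77 for 20 genes of disease-associated microglia, in which Ctsb and Ctsd (cathepsins B and D) were found in 53 cells each and Cybb, an NADPH oxidase subunit, in 3. It was 0.76 for 14 inflammatory genes, from Ccl4 (a chemokine) in 33 cells to Ptgs2 (cyclooxygenase 2) in 3. Ccl4 reached 53145 FPKM in cell 21, the cell with the highest C1q and Tyrobp. These lists were chosen with earlier results of these data known, and several of their genes are made by other cells too.

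Other genes linked to TREM2 and TYROBP signalling were each detected in fewer cells than Trem2 and Tyrobp. Among 14 such genes the median was detected in 14.4% of cells, and none reached 50%. Clec5a, a receptor gene coupled to TYROBP, was found in 12 cells. Syk, the kinase that TYROBP recruits, was detected in 2 cells and Sirpb1a in 1. Against this, Trem2 was detected in 21 cells and Tyrobp in 35. The mean of the list had a rho of 0.75 with the mean of the 10. Among 11 transcription factors of microglia, Spi1 (PU.1) was detected in 16 cells, all 16 of which had Tyrobp and at least 5 of the 10 genes. Mef2c, which neurons also express, was the widest of them at 37 cells, with a rho of 0.25, and Sall1 was found in 6 cells.

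Complement genes beyond C1q were seldom detected. Of 19 listed, 15 were measured and the other 4 were not analysed here. Their median detection was 11.9% of cells, against 62.7, 71.2 and 55.9% for C1qa, C1qb and C1qc. C1ra and C1s1, which encode the proteases that C1q binds to make the active C1 complex, were detected in 1 cell each, cells 34 and 8, at 1.11 and 1.62 FPKM. C2, a further component of the pathway, was detected in 1 cell, and C3, the central component on which the pathways meet, in 7. C4b, which astrocytes and oligodendrocytes also make, was the exception with 32 cells. Recognition subunits of the pathway were thus widely detected in these cells and the proteases that act with them were found in 1 cell each.

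Ligands of the 10 genes' receptors were found in part in the same cells. Cx3cl1, the neuronal ligand of Cx3cr1, was detected in 36 cells, and 13 of the 19 cells with Cx3cr1 had both. Csf1 was detected in 16 cells and Il34 in 11, and of the 20 cells with Csf1r 10 had Csf1, 4 had Il34 and 8 had neither. Apoe, a lipid carrier that binds TREM2, was detected in 55 cells, and all 21 cells with Trem2 had it. Clu, another such carrier, was detected in 45 cells, of which 19 had Trem2. Tgfb1, which maintains the homeostatic program, was found in 4 cells. Receptor and ligand RNA were thus present together in some libraries, from 4 cells for Il34 with Csf1r to 21 for Apoe with Trem2. Whether this exceeded the detection of each ligand over all cells was not tested.

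Against the neuronal genes the 10 genes showed no steady relation over all cells. Spearman rho between the mean of the 10 and the mean of the 21 neuronal genes was 0.01 over the 59 cells (Pearson r -0.09). Gene by gene, rho of the neuronal genes with the mean of the 10 ran from -0.19 (Vsnl1, a neuronal calcium sensor) to 0.20 (Nefh, the heavy neurofilament chain). Both means moved with the number of genes detected, with a rho of 0.48 for the 10 genes and 0.52 for the neuronal list. Given that number, the partial rho between them was -0.33, and among the 46 cells with at least 2000 genes rho was -0.29. Each of the 10 genes had a negative partial rho with the neuronal mean, from -0.23 for Cx3cr1 to -0.42 for Tyrobp. The share of all genes with a negative value was not computed, so the sign cannot be called particular to the 10. The sign of this relation thus depended on the cells and the correction, and the cause was not tested.

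Microglia and neuronal genes were found in the same libraries. At least 50% of both lists was detected in 26 cells (44.1%, interval 31.2 to 57.6%), at least 50% of the 10 without the neuronal list in 4 cells (21, 36, 40 and 45), the neuronal list without the 10 in 21, and neither in 8. Of the 10 cells with all 10 genes, 9 had at least 50% of the neuronal list, and the number of neuronal genes in them ran from 6 in cell 21 to 21 in cells 9 and 24. Of the 7 cells with none of the 10, 4 had at least 50% of the neuronal list. Among the 30 cells with at least 5 of the 10, Snap25 was detected in 29, Gad1 (which makes GABA) in 26 and Rbfox3 (which encodes NeuN) in 23. In the other 29 cells Snap25 was detected in 25 and Rbfox3 in 18, and the count of Gad1 there is not given.

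Levels separated the cells more than detection did. The mean of the 10 minus the mean of the neuronal genes had a median of -1.53 over the 59 cells (SD 3.64, range -6.77 to 8.61) and was above 0 in 18 cells. The median was -0.68 with a pseudocount of 10 and -2.35 with one of 0.1. Among the 10 cells with all 10 genes it was above 0 in 9. In cell 21 the 10 genes averaged 9.15 on the log2(FPKM + 1) scale and the neuronal genes 0.54, and in cell 12 they averaged 0.37 and 7.14. Between these ends lay cells high for both: in cell 33 the means were 6.45 and 5.98, and in cell 13, the deepest library, 4.97 and 6.96. Cell 33 had 1998 fragments of C1qb and 545 of P2ry12 with all 21 neuronal genes detected.

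**Figure D5:**
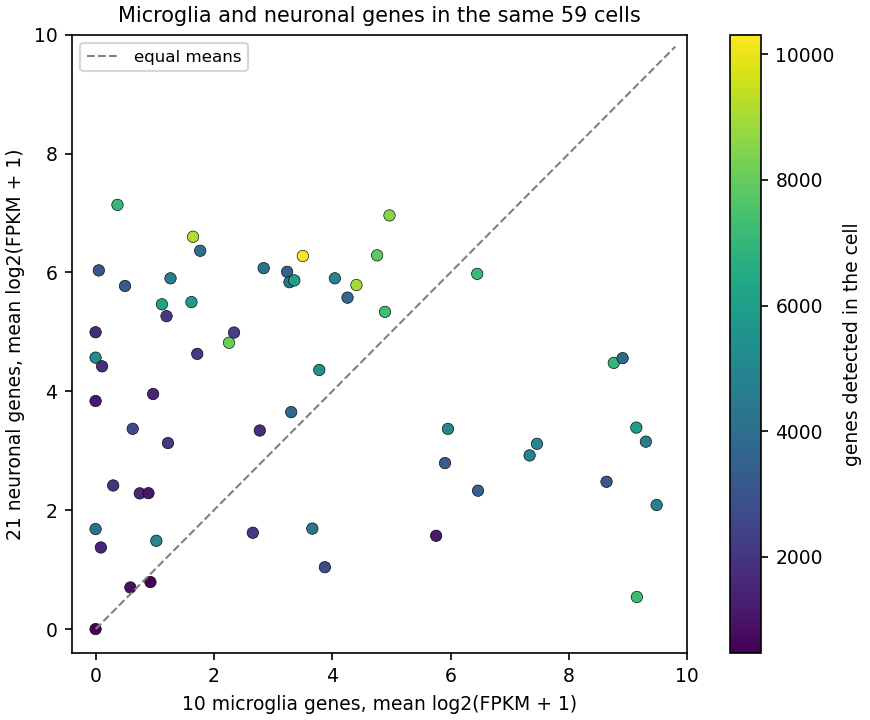
Mean log2(FPKM + 1) of the 10 microglia genes (x axis) against that of 21 neuronal genes (y axis) in each of 59 cells, with the number of detected genes as colour and equal means as the dashed line. Of the cells, 18 lie on the microglia side of the line, and many of the others hold both sets of genes.

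The share of a library taken by the 10 genes was small in most cells. It was 0% of the summed gene FPKM at the lowest, 0.152% at the median and 4.68% at the highest, in cell 21, and exceeded 1% in 11 cells. Of these 11, 8 had all 10 genes, and the others were cells 19, 36 and 51. Cell 19 had all but Csf1r, at a depth of 61259 fragments, with 148 fragments of C1qb and 1 each of P2ry12 and Tmem119.

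Genes of further cell types and measures of library content moved with the 10 genes to a lesser degree. Spearman rho with the mean of the 10 was 0.25 for 10 oligodendrocyte genes (partial 0.17) and 0.27 for 10 astrocyte genes (partial 0.06). Mbp, a myelin gene, was detected in all 30 cells with at least 5 of the 10, and in 25 of the other 29. At least 50% of the 10 was detected together with at least 50% of the oligodendrocyte list in 28 cells, together with that of the astrocyte list in 20, and together with those of the oligodendrocyte, astrocyte and neuronal lists in 19. The mean of the 10 had a rho of 0.32 with depth, 0.39 with the mitochondrial share of the summed FPKM and -0.53 with the share of the ERCC spike-ins. The spike-in share was 1.77% at the median in the 10 cells with all 10 genes (0.094 to 3.64%) and 9.61% in the 7 cells with none (3.89 to 37.6%). The part of each of these in the levels of the 10 genes was not tested, and whether the RNA came from the patched cell or from its neighbours was not tested.

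Markers of other immune cells were mostly detected in few cells, with Cd74 the widest. Of 16 markers of border macrophages and monocytes, 10 were measured, with a median detection of 3.39% of cells and summed levels from 0 to 1846 FPKM. The mean of this list had a rho of 0.61 with the mean of the 10 (partial 0.57), and its part in their levels was not tested. Cd74, an antigen-presentation gene that activated microglia also express, was detected in 18 cells, more than Tmem119, with a rho of 0.57. The macrophage markers Cd163 and Pf4 were detected in 1 cell each. Of the same list, H2-Aa was detected in 7 cells, H2-Ab1 in 6 and Ms4a7 in 3. H2-Aa and Ms4a7 were highest in cell 36, at 969 and 195 FPKM, the cell with the widest difference of group means. Of 12 lymphocyte markers, 7 were measured, with a median of 5.08% and Cd4 the widest at 4 cells. Of 10 endothelial and mural markers, 9 were measured, with a median of 3.39%, and the list had a rho of 0.17. Trem2, P2ry12 and Tmem119, at 21, 21 and 14 cells, were each more widely detected than every lymphocyte marker measured.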

How the data were processed

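RNA-seq of 59 single cells was deposited by the authors as 1 table of FPKM for 20740 features, of which 51 are ERCC spike-ins. Per the submitters' processing notes, the tools were STAR 2.5.3a and featureCounts 1.5.3 on GRCm38. Strandedness, annotation release and the counting of multi-mapped reads were not given in the sources used here. The 59 cells formed 1 group by their labels, so no test was run. The 10 genes and the comparison lists (17 lists, 211 entries, 191 in the table) were chosen with earlier results of these data known. Entries absent from the table were left out of the list medians, and genes undetected in all cells may be among them. Detection meant an FPKM of 1 or more, and log2 values are log2(FPKM + 1) computed from the deposited FPKM, a scale that understates differences of low genes. Depth was recovered as the spacing of FPKM multiplied by exon length (GENCODE M21, 93.6% of genes). A median of 73.3% of low values were whole fragments within 0.02 (63.9 to 80.4% per cell), so no count model was used. No 2 cells held identical values. Partial rho is Spearman rho given the number of genes detected. Other genes named are the extremes of each list by detection, those needed for joint counts, and the 15 highest and 5 lowest by rho. Cd163, Pf4, H2-Aa, H2-Ab1, Ms4a7, C1s1, C2, C3, Clec5a, Spi1, Syk and Gad1 were named in addition. Some genes that these criteria select are left out here. Promoter windows are RefSeq's on GRCm38.p6, whose start sites need not be those of GENCODE. The C1qc and Aif1 windows overlap their GENCODE gene, and the Cx3cr1 window lies within its own. Alternatives were other detection thresholds, pseudocounts, a rescaling, list medians, subsets of cells, partial rho and a score without C1q. Steps were tested on simulated data. Python 3.11.15, pandas 2.3.3, numpy 2.4.6, scipy 1.17.1 and matplotlib 3.10.9 were used.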

Additional observations from a re-analysis of the deposited data

How the results depend on the processing

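Across 23 results, 128 alternative values were computed, of which 119 kept their direction and stayed within the error of the main value. Of the 128, 60 were detection shares of single genes, 2 of which moved. The 119 include values that shifted visibly, such as the share with all 3 C1q chains given below. The rho of 0.01 between the 10 microglia genes and the neuronal list was the least stable: it was 0.10 with a pseudocount of 0.1, -0.12 with a pseudocount of 10, -0.076 with list medians, -0.29 in the 46 cells with at least 2000 genes, -0.17 in the 39 cells with at least 500000 fragments and -0.33 as a partial rho given genes detected, and the cause was not tested. The median rho of the homeostatic pairs was 0.57 as a partial rho, against 0.65. Detection of Aif1 was 82.6% of cells with at least 2000 genes and 82.1% of cells with at least 500000 fragments, against 67.8% of all cells. The share of cells with all 3 C1q chains was 39.0% at a threshold of 10 recovered fragments and 60.9% in cells with at least 2000 genes, and the share with at least 5 of the 10 genes was 45.8% and 63.0% under the same settings. The median difference between the complement and TREM2-TYROBP group and the homeostatic group stayed above 0 in every alternative run, from 1.41 with a pseudocount of 10 to 2.90 with a pseudocount of 0.1. The median difference between the 10 genes and the neuronal list was -0.68 and -2.35 with these pseudocounts, against -1.53. Of the 15 genes most like the 10, 13 were shared with the 15 found in cells with at least 2000 genes. No paired analysis was possible because the labels give 1 group and number its cells. Shallow cells limit detection: the lowest depth was 29043 fragments, at which a gene at 0 may be present, and intervals cover counting error over cells only.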
